A study of Mus musculus with 8 samples.

Results

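Phosphorylated RNA polymerase II was found at 1252 sites that lie inside a protein-coding gene, 1000 to 10000 bp downstream of the gene's annotated 5′ end, in every one of 8 CUT&Tag libraries. They were chosen by merging the overlapping peaks of all libraries into 56005 regions and keeping regions with a peak in all 8 libraries, here called constant. Of these, the sites had a midpoint within the stated distance and over 1000 bp from every protein-coding 5′ end. The 1252 sites made up 10.6% of 11773 constant regions. Another 6281 constant regions lay within 1000 bp of a coding 5′ end, 2175 lay over 10000 bp inside a gene (called deep sites below) and 2065 lay outside genes. Because the choice used peak presence, presence and constancy are a description and not a finding.

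The cells were MEL, a mouse erythroleukaemia line that resembles early erythroblasts, kept as a dCAS control line and as a Myrlin KD line. The labels call the lines control and CRISPR-edited and name no further treatment. Myrlin is an RNA made from an enhancer that lies 81 kb upstream of Myb, and KD is its knockdown. Chromatin was tagged with an antibody against the Rpb1 C-terminal domain phosphorylated on serine 5 (Ser5P) or serine 2 (Ser2P), with 2 libraries for each of the 4 combinations of antibody and line. The labels do not say whether the lines are single clones or how the cultures of a group were separated, and a p-value here reflects library-to-library spread that may be no more than technical.

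In CUT&Tag the antibody brings a transposase to its target, and the DNA next to it is cut and tagged for sequencing. Rpb1, the largest subunit of polymerase II, carries a long repeated tail. Its Ser5 is phosphorylated by the general factor TFIIH as polymerase leaves a promoter, and Ser2 is phosphorylated mainly by the elongation kinases as polymerase moves into the gene. A compact peak of both forms a short way inside a gene can lie over several kinds of element. The gene may have an alternative promoter, the region downstream of a promoter may hold slowed polymerase, and introns of erythroid genes are known to hold enhancers, which polymerase also transcribes. The 5′ end used by the rule is the outer end of the RefSeq gene interval. A start that lies inside that interval is therefore not counted as a promoter by the rule.

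The lists held 20793 to 32125 peaks, and read totals are unknown. The second Ser2P control library stood apart, with the shortest list, the narrowest peaks (median 381 bp against 428 to 533.5 bp elsewhere) and a median covered length of 526 bp at constant regions against 685 to 780 bp in the other libraries. Without it, 1459 sites met the rule in the other 7 libraries. Of 49 erythroid and haem genes 10 hosted a site, Alas2, Klf1 and Gata1 among them, as did 2 of 20 myeloid, 1 of 20 lymphoid, 2 of 19 megakaryocyte or mast cell and 1 of 20 non-haematopoietic marker genes. The share over all coding genes was 5.58%.

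The sites were mostly compact. The merged region had a median width of 1005 bp (359 to 4026 bp), and at 1051 sites (83.9%) each library had exactly 1 peak. The median distance from the host 5′ end was 3417.5 bp. The sites fell in 1202 host genes, of which 1153 held 1 site, 48 held 2, and Sin3a, the scaffold of a histone deacetylase complex, held 3. Host genes were longer than coding genes in general, with medians of 23634.5 and 17261.5 bp. Part of this is set by the rule, since a gene under 1000 bp cannot host a site. Of 21536 coding genes, 19996 reach that length. At 32 sites a second gene was also a possible host. In 233 cases the region, though not its midpoint, reached within 1000 bp of an outer 5′ end, and 7 regions held one.

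At the limits of the rule, sites of Cd247 (1001 bp) and Man1a (1004 bp) were just inside while regions of Azin1 and Madd (both 998 bp) were just outside. At the far limit Slc23a1 (9982 bp) and Map3k6 (9989 bp) were in, and Sfi1 (10031 bp) was out. Covered length in the first Ser5P control, for example, was 946 and 1210 bp at the near pair inside, and 670 and 532 bp at the pair outside. The order was not the same in every library. In the second Ser2P control the pair inside had 408 and 580 bp and the pair outside 622 and 684 bp.

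A large share of the sites sat on a transcription start that RefSeq lists inside the host gene. Of 1222 sites on chromosomes with listed starts (30 sites lay on a chromosome with none listed), 486 held an internal start of their own host, which is 39.8% (95% Wilson interval 37.1 to 42.5). Among deep sites the share was 201 of 2108, or 9.54% (8.35 to 10.9). A further 21 sites held a start of a gene that is not protein-coding, 3 held a start of another coding gene and 112 had a listed start within 1000 bp of the region without holding it. The other 600 sites, 49.1% (46.3 to 51.9), had no listed start within 1000 bp, against 86.4% of deep sites. These intervals cover counting error only.

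The sequences immediately before 6 of these internal starts are printed to show the promoter sequence next to the start that the peaks covered. Part of a window can lie outside the site, as at Rpp40 and Tfr2. Each runs 5′ to 3′ on the strand of the gene over the 250 bases that end just before the most upstream listed start held by the site. They are RefSeq sequences of GRCm38.p6. In all 6 the start base itself lay under a peak in 8 of 8 libraries. Capitals mark 4 motifs on either strand, and matches may overlap. The GC box was searched as GGGCGG and the ETS motif as CGGAAG. The CCAAT box was searched by the letters of its name. The GATA motif was searched as AGATAA and as the same word with T in the first place, with G in the last place, or with both changes. Aph1b, Rpp40 and Add3 were the 3 sites with the highest authors' fold in their weakest library, and Tfr2, Zbtb7a and Mcl1 belong to the gene lists described below. Their windows were, in order, chr9:66795424-66795673 (minus strand), chr13:35906348-35906597 (minus), chr19:53142506-53142755 (plus), chr5:137570725-137570974 (plus), chr10:81136021-81136270 (plus) and chr3:95658471-95658720 (plus).
Aph1b: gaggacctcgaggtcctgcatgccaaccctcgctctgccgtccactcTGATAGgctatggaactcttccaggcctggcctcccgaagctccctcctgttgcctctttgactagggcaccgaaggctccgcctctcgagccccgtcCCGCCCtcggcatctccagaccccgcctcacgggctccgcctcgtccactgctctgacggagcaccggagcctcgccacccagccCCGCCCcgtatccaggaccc
Rpp40: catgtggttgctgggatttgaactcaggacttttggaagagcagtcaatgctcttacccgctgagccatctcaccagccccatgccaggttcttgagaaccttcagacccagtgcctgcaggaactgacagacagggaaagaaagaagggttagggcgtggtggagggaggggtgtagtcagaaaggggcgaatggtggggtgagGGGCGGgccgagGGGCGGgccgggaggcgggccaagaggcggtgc
Add3: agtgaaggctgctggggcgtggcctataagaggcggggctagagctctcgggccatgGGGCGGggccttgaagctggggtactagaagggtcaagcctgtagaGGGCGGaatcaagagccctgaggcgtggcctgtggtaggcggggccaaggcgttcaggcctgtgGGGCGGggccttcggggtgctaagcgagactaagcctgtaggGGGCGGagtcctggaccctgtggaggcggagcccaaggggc
Tfr2: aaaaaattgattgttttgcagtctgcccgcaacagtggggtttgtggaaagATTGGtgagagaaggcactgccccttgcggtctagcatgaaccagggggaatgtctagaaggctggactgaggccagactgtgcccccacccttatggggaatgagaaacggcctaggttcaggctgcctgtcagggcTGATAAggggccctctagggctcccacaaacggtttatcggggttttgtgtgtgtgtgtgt
Zbtb7a: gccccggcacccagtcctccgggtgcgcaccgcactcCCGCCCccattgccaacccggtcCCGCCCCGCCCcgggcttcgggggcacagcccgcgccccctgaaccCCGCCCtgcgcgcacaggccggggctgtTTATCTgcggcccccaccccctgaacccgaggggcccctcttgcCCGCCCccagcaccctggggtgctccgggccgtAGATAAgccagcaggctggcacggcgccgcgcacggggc
Mcl1: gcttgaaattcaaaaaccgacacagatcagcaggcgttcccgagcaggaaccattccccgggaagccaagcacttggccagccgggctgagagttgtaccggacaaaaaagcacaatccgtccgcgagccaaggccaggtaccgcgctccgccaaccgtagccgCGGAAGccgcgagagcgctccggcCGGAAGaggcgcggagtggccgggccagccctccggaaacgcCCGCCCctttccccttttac

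The window of Add3 held 4 GC boxes and that of Zbtb7a held 5, with 2 GATA motifs. Tfr2 had a GATA motif and a CCAAT box but no GC box, and Mcl1 had 2 ETS motifs and 1 GC box. Among the printed windows, GC content ran from 54.0% at Tfr2 to 78.0% at Zbtb7a. The windows before the internal starts of Dnmt1 and Bcl2l1, taken in the same way and not printed, held none of these motifs. Their GC content was 54.8% and 47.6%, and their ratio of observed to expected CpG 0.38 and 0.848. In the printed windows that ratio ran from 0.29 at Tfr2 to 1.01 at Mcl1. A match is a description of letters in the window and does not show that a factor was bound.

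Over all 486 internal starts the preceding 250 bases were GC-rich. Their median GC content was 60.4% and their median CpG ratio 0.722, against 52.4% and 0.373 over all 32851 listed starts of RefSeq genes. Outer starts of 1858 genes with a constant site within 1000 bp had 58.8% and 0.745. These are fewer than the 7426 coding genes with a peak within 1000 bp of the outer 5′ end in all 8 libraries, and need not stand for all of them. A GC box was present in 61.5% of the internal-start windows, in 32.7% of all listed windows and in 59.0% of the outer-start windows. The ETS motif CGGAAG stood in 25.9%, 13.6% and 28.4% of these sets in the same order, the NRF1 motif in 8.44%, 3.74% and 9.8%, and the KLF motif, which can hold a GC box, in 62.3%, 45.9% and 63.3%. TATAAA was found in 4.53%, 12.4% and 7.48%, and the GATA motifs in 17.9%, 26.5% and 17.2%. These shares at internal starts were nearer to those of the outer starts with constant polymerase than to those of all listed starts. CCAAT (37.2%, 33.8% and 41.1%) and the CRE motif (2.06%, 1.55% and 3.07%) were nearer to all listed starts. The YY1 motif ATGGCGG stood in 3.7% of the internal-start and 5.11% of the outer-start windows. The composition was not particular to these sites. At 201 internal starts held by deep sites the median GC content was also 60.4%, and the CpG ratio 0.641. There a GC box stood in 54.7% of windows, the KLF motif in 66.2%, NRF1 in 7.46%, TATAAA in 6.47% and GATA in 19.4%. The ETS motif was less frequent there, at 17.9%. All motifs were searched on both strands of windows of the same length.

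The regions were chosen here for holding the start, so at least 1 library must cover it, and how many do is given as a description. The summits lie in the same regions, so their closeness to the start and their split between its sides are partly set by this choice. They too are a description. The base was under a peak at 392 of the 486 sites (80.7%) in the second Ser2P control library and at 435 to 458 sites in each of the others. At 351 sites (72.2%) it was under a peak in all 8 libraries. The median position of the summit relative to the start was between -29.0 bp (upstream) and 16.5 bp (downstream) in the 8 libraries, and 291 to 346 summits per library were within 200 bp of it. Neither antibody had its summits mainly on 1 side: 238 to 264 of 486 were downstream of the start for Ser5P and 213 to 240 for Ser2P.

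Sites became sparser over the first few kb from the 5′ end, and beyond that only sites with an internal start went on falling. Between 1 and 2 kb there were 375 sites, or 1.97 per 100 genes that reach that far, and the next bins held 1.06, 0.751 and 0.541. From 5 kb on the density did not decline further, with 0.675, 0.586, 0.642, 0.587 and 0.623 per 100 genes, the last from 86 sites. Sites with an internal start fell from 1.03 to 0.116 per 100 genes from the first bin to the last, lower in each bin than in the one before. These are densities per gene. The number of listed internal starts at each distance was not counted, so the fall cannot be told apart from a fall in listed starts. Sites with no listed start within 1000 bp went from 0.489 to 0.435 per 100 genes, with values from 0.264 to 0.493 in between and no steady order. The share of sites holding an internal start accordingly went from 52.3% in the first bin to 18.6% in the last. Their median distances were 2514 bp with an internal start and 5179.5 bp with none.

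**Figure D1:**
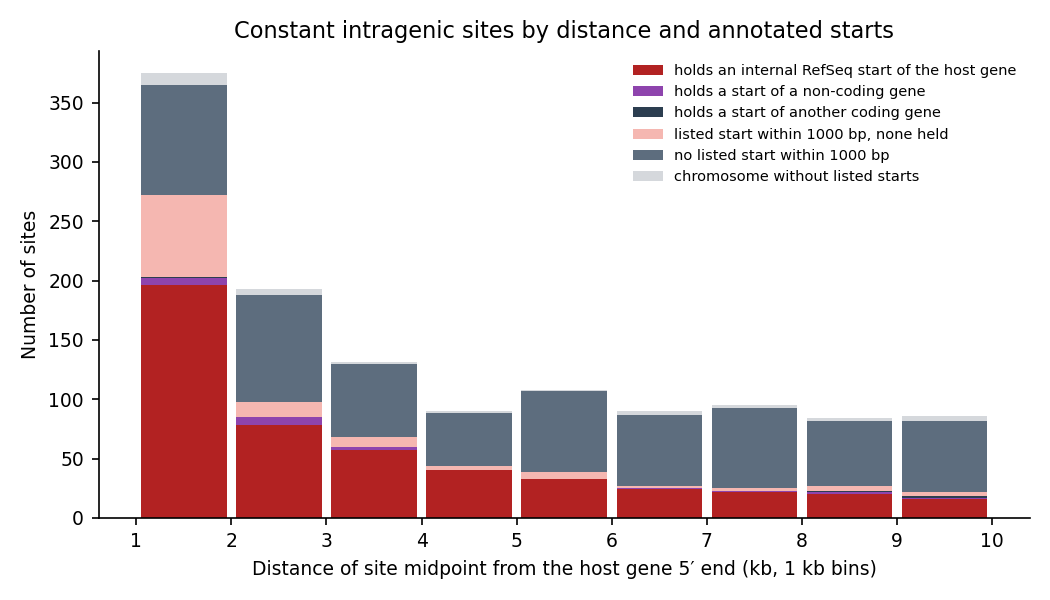
Number of constant intragenic sites (vertical axis) in 1 kb bins of distance from the host gene 5′ end (horizontal axis), stacked by the annotated start each site holds. The first bin holds 375 sites, 196 of them with an internal RefSeq start of the host, and the last holds 86, of which 16 have one.

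Sites with an internal start also ranked higher. To set lists of different length side by side, the authors' fold at each site was turned into its percentile within the library's own list, and the lowest of the 8 percentiles was taken. Its median was 57.5 at sites with an internal start and 34.7 at sites with no listed start nearby. The highest of all was the Aph1b site at chr9:66795137-66796111, where the fold was 14.91 to 17.85 in the 8 libraries and peaks covered 800 to 970 bp. Aph1b encodes a subunit of gamma-secretase. At Rpp40, which encodes a subunit of RNase P, the fold was 14.38 to 16.81, and at Add3, which encodes gamma-adducin of the membrane skeleton, 13.35 to 15.07. The next 7 sites were in Zpbp, Anapc5, Rfx1, Phf19, Mesd, Sgo1 and Nbeal1. Of these 10 sites, all but that of Phf19 held an internal start. Phf19 encodes a Polycomb-like protein, and its site 9215 bp inside the gene had folds of 11.41 to 14.33 with no listed start within 1000 bp.

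A few sites lay by the starts of non-coding genes. In 81 cases (6.47%) the midpoint was within 1000 bp of the 5′ end of a gene that is not protein-coding, 80 of them long non-coding RNA genes, and 50 of these sites also held an internal start of the host. Among deep sites 71 (3.26%) were that close. High-ranked ones were in Fcho2 (527 bp from Gm34995), Angel1 (139 bp from Gm32755), Mmadhc (261 bp from Gm13483), Hsf2 (25 bp from 4930467K11Rik) and AB010352 (10 bp from Gm35089). Hsf2 encodes a heat-shock factor. Such paired starts cannot be told apart by these peaks, which carry no strand.

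The outer 5′ ends of the host genes did not always have a peak of their own. Over all 1202 hosts, 36.0% had a peak within 1000 bp of the outer 5′ end in all 8 libraries and 41.2% had one in none. Of all 483 hosts of sites with an internal start, 28.4% had an outer peak in all 8 libraries and 52.2% in none, and of 578 hosts of sites with no listed start nearby these were 40.7% and 33.6%. Sites whose region reaches into that window can supply the peak themselves, so hosts of regions over 1000 bp from every outer 5′ end were counted apart. Of 353 such hosts with an internal start under the site, 55 (15.6%, 95% Wilson interval 12.2 to 19.7) had an outer peak in all 8 libraries and 251 (71.1%, 66.2 to 75.6) in none. Of 544 such hosts whose site had no listed start nearby, 220 (40.4%, 36.4 to 44.6) had one in all 8 and 193 (35.5%, 31.6 to 39.6) in none. Without such a filter, the shares were 34.5% and 52.0% for all 21536 coding genes, and hosts of deep sites had 35.5% and 45.2% with an internal start, and 48.5% and 28.4% with no listed start nearby.

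The order held in each library. The share of hosts with an outer peak was 18.7% to 23.5% in the 8 libraries for sites with an internal start, and 46.3% to 56.8% for sites with no listed start nearby, with the second Ser2P control library lowest in both. Rpp40, Add3, Zpbp, Rfx1, Sgo1, Nbeal1, Bcl2l1, Fth1, Dnmt1 and Mcl1 all had an internal start under the site and a peak at the outer 5′ end in 0 of 8 libraries. Anapc5, Mesd, Tfr2, Zbtb7a, Smim1 and Man1a also had an internal start under the site but an outer peak in all 8. Of these, only the Mesd region lay over 1000 bp from the outer 5′ end. The regions of Anapc5, Tfr2, Zbtb7a and Man1a reached into that window and the Smim1 region held the outer end, so they can supply the peak themselves. For the first of these groups the rule's distance was measured from an end of the gene model without a polymerase peak.

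**Figure D2:**
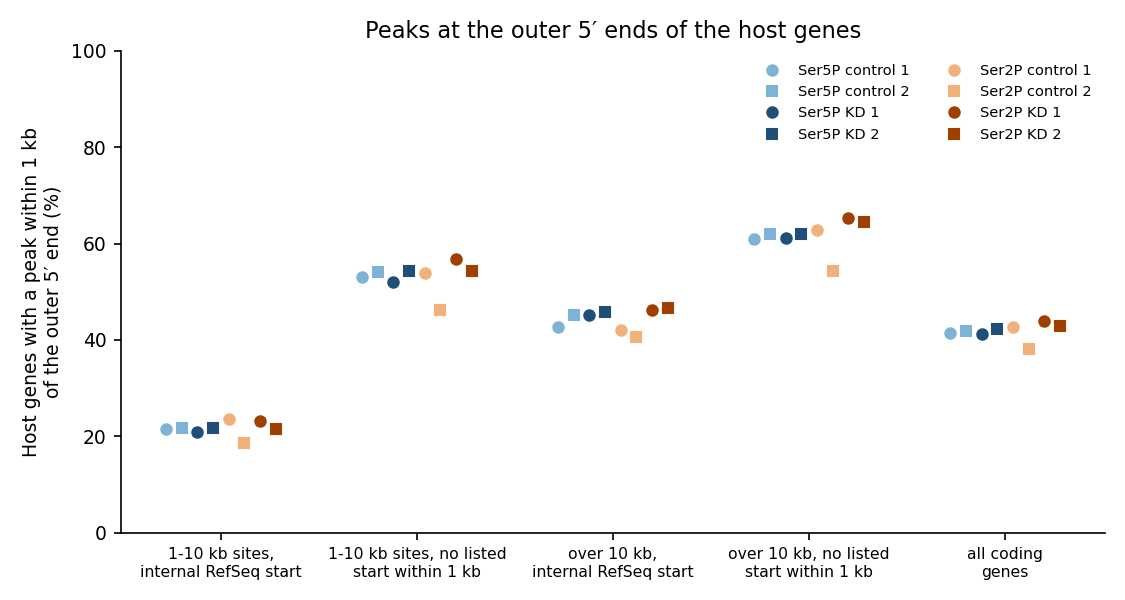
Percentage of host genes (vertical axis) with a peak within 1 kb of the outer 5′ end, one point per library, for hosts of sites 1 to 10 kb inside (regions over 1000 bp from every outer 5′ end), hosts of deep sites, and all coding genes. Hosts of sites with an internal RefSeq start lie between 18.7% and 23.5%, and hosts of sites with no listed start nearby between 46.3% and 56.8%.

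The length of a site covered by peaks followed the same division. The median over the 1252 sites was 700.5 and 726 bp in the Ser5P controls, 720.5 and 785 bp in the Ser5P KD libraries, 672.5 and 505.5 bp in the Ser2P controls, and 761 and 745 bp in the Ser2P KD libraries. As group means these were 713 ± 18.0 bp (SD, n = 2), 753 ± 45.6 bp, 589 ± 118 bp and 753 ± 11.3 bp. In every library sites with an internal start were wider than sites with no listed start nearby, with medians of 586 to 896.5 bp against 441.5 to 694.5 bp. The grouping is not independent of width, since a wider region is more likely to hold a start. Also, 131 of the 486 regions with an internal start reached within 1000 bp of an outer 5′ end, against 36 of the 600 with no listed start nearby. Deep sites had 458 to 665 bp and regions near a coding 5′ end 584 to 853 bp. At the median, sites with an internal start were wider than regions near a coding 5′ end in each of the 8 libraries, and sites with no listed start nearby lay on either side of deep sites.

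**Figure D3:**
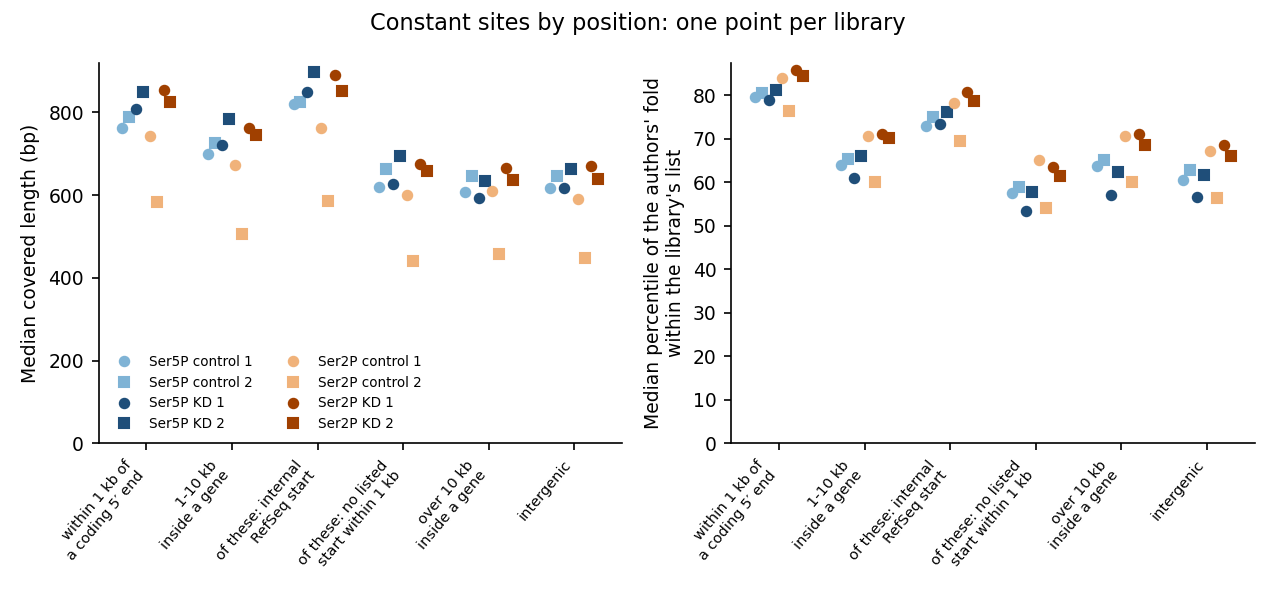
Median covered length in bp (left) and median percentile of the authors' fold within the library's list (right) for constant regions by position, one point per library. In each library the sites with an internal RefSeq start lie above the sites with no listed start within 1 kb, and the second Ser2P control library is lowest for covered length in every class.

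Of 49 erythroid and haem genes measured, 10 (20.4%) held one, and of 44 haematopoietic regulators, 14 (31.8%). Many coding genes have no constant peak at all, so the shares were also taken among genes with a constant peak at the outer 5′ end or inside. They were 10 of 32 (31.2%) and 14 of 34 (41.2%), against 13.5% of 8904 coding genes. By the same measure lists of other cell types were as high on few genes, with 2 of 7 megakaryocyte or mast cell markers (28.6%), 1 of 3 non-haematopoietic markers (33.3%), 2 of 2 myeloid markers and the 1 lymphoid marker with a constant peak. These lists were written with earlier results of these data known, so the shares are a description. The other hosts in these lists were Epb41, Gypc, Klf1, Ldb1, Lyl1, Runx1, Spi1, Gfi1b, Lmo4 and E2f2, beside those described next. Gata1 and Klf1 belong to both lists.

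Among genes of haem and iron, the Alas2 site lay 2544 bp inside the gene at chrX:150549418-150550505. Alas2 encodes the erythroid enzyme that starts haem synthesis. Peaks covered 883, 667, 789 and 875 bp in Ser5P control 1 and 2 and KD 1 and 2, and 636, 397, 1083 and 912 bp in the same order for Ser2P. The Ser2P KD libraries both lay above the Ser2P controls and the Ser5P groups overlapped, with adjusted p = 0.445 for Ser2P KD against control (limma, described below). No listed start was near, and no library had a peak at the outer 5′ end.

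Tfr2 encodes the second transferrin receptor, an iron sensor of erythroblasts. Its site, whose upstream sequence is printed above, covered 607, 762, 629 and 692 bp for Ser5P and 606, 372, 684 and 606 bp for Ser2P. The second Ser2P control lay apart below the others, which overlapped.

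Fth1 encodes the ferritin heavy chain that stores iron, and Bcl2l1 encodes the survival protein BCL-X that late erythroblasts depend on. At Fth1 (2227 bp) covered lengths were 1055, 1167, 964 and 1086 bp for Ser5P and 1081, 547, 718 and 891 bp for Ser2P. At Bcl2l1 (2569 bp, chr2:152830634-152831835) they were 1166, 1140, 1157 and 1157 bp for Ser5P and 1137, 707, 1157 and 1172 bp for Ser2P. Bcl2l1 therefore had nearly the same covered length in 7 libraries, and the second Ser2P control was again the low one. Both sites held an internal start, and neither gene had a peak at its outer 5′ end in any library. Nprl3, whose introns hold the alpha-globin enhancers, had a site at chr11:32264849-32265422, 2572 bp inside, with 453 to 574 bp covered for Ser5P and 421 to 504 bp for Ser2P.

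The Gata1 site lay 5274 bp from the outer 5′ end at chrX:7971017-7971762. Gata1 encodes the main transcription factor of erythroid cells. Measured from the nearest listed start of Gata1, this site lay 3479 bp upstream, so it was inside the gene only by the outer end of the interval, where no library had a peak. Covered lengths were 664, 629, 412 and 714 bp for Ser5P and 567, 624, 629 and 627 bp for Ser2P. The first Ser5P KD library was lowest and the others lay between 567 and 714 bp. E2f2, which encodes a cell-cycle factor of erythroid precursors, was alike in this, with its site 2777 bp upstream of its nearest listed start. Of the 600 sites with no listed start nearby, 416 were in genes with a listed start, and at 44 of these (10.6%) the nearest one lay downstream of the site.

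Zbtb7a, a globin gene repressor, had the widest of the 11 sites drawn in the plot of erythroid genes and regulators, with 1955, 1844, 1661 and 2558 bp for Ser5P and 1175, 951, 1737 and 1993 bp for Ser2P. Both Ser2P controls lay below both Ser2P KD libraries (adjusted p = 0.531, limma). Klf3, a repressor related to Klf1, covered 1148 to 1449 bp for Ser5P and 751 to 1539 bp for Ser2P at 8670 bp inside the gene. Fli1, an ETS factor of the megakaryocyte lineage, covered 515 to 1128 bp for Ser5P and 333 to 922 bp for Ser2P. Mafg, which encodes a small Maf protein that can be a subunit of the erythroid factor NF-E2, covered 599 to 789 bp and 233 to 657 bp. Runx3 varied widely between libraries of a group, with 918 and 457 bp in the Ser5P controls and 293 and 961 bp in the Ser2P KD libraries.

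**Figure D4:**
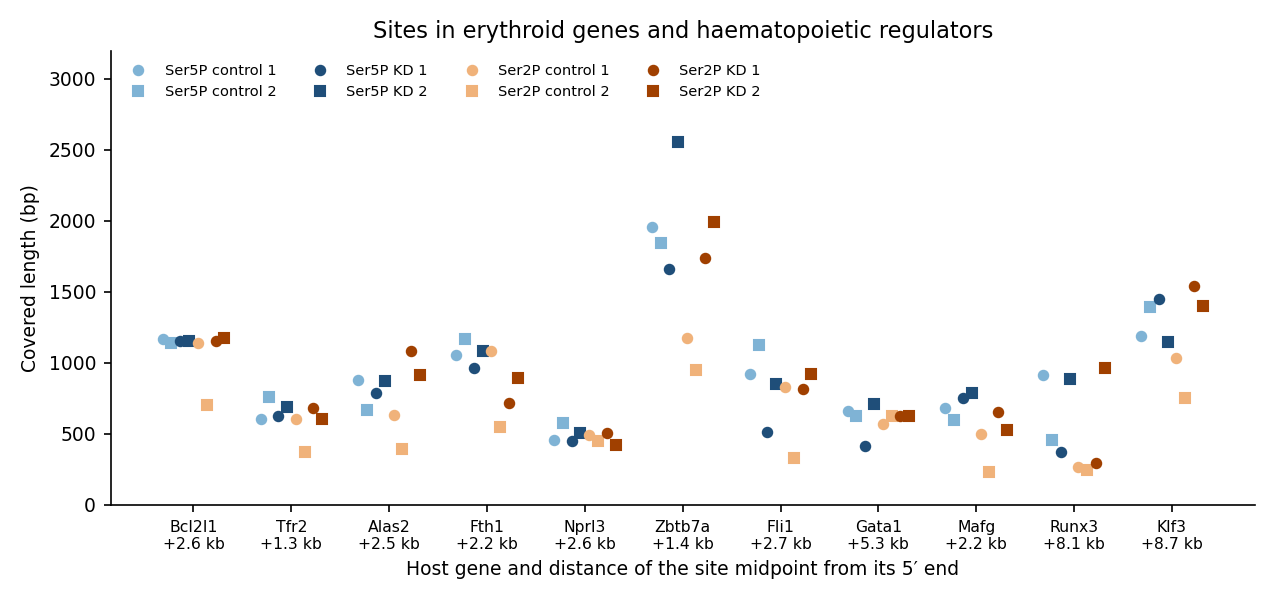
Covered length in bp (vertical axis) of 11 sites in erythroid genes and haematopoietic regulators, one point per library, with the distance of the site midpoint from the host 5′ end under each name. Zbtb7a reaches 2558 bp, Nprl3 stays between 421 and 574 bp in all 8 libraries, and the second Ser2P control library is the lowest of the 8 at 9 of the 11 sites.

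Other gene groups hosted fewer sites. Cell-cycle and replication genes had 6 hosts of 44 (13.6%), chromatin modifiers 7 of 44 (15.9%), immediate-early and stress genes 4 of 45 (8.89%), and ribosomal protein genes 5 of 63 (7.94%). Polymerase II pausing and elongation genes had 1 of 38 (2.63%), which was Ctdp1, encoding a phosphatase of the polymerase tail. Among genes with a constant peak these shares were 16.7% (cell cycle), 13.3% (immediate-early), 8.77% (ribosomal) and 2.86% (polymerase II), and 7 of 35 for chromatin modifiers. The polymerase II genes thus stood below the 13.5% of all such coding genes.

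Among the cell-cycle hosts, Ccna2, encoding cyclin A, covered 738 to 808 bp for Ser5P and 746 to 930 bp for Ser2P. Cdk6, encoding a G1 kinase, had a wide site, 1966 bp inside the gene, that held an internal start. Ser5P covered 1050 and 1722 bp of it in control and 2645 and 2689 bp in KD, and the groups did not overlap. For Ser2P the values were 2058 and 962 bp against 2597 and 1994 bp, and the groups overlapped. The Ser5P difference was 0.92 on the centred log2 scale with adjusted p = 0.534 (limma), so it did not pass. Ccnd3, the cyclin D of erythroid divisions, held 2 sites, at 2983 and 6449 bp. Cdc6, which loads the replicative helicase, covered 615 to 819 bp for Ser5P and 591 to 770 bp for Ser2P near the far limit of the rule (9958 bp). Cdkn1a, encoding the cyclin-dependent kinase inhibitor p21, held an internal start and ranged from 1462 to 2288 bp for Ser5P and from 610 to 1970 bp for Ser2P.

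Among chromatin modifiers, Dnmt1, the maintenance DNA methyltransferase, had its site 7087 bp inside over an internal start, with 1022 to 1191 bp for Ser5P and 608 to 1040 bp for Ser2P. Dpy30, a core subunit of the MLL and SET1 methyltransferase complexes, was alike in position (7573 bp) and held an internal start, with 649 to 889 bp and 726 to 888 bp. Tet3, a DNA demethylase, held 2 sites, 13917 and 7921 bp upstream of its nearest listed start. Kmt2d, Dnmt3a and Kat2b had a listed start within 1000 bp of the region that the region did not hold. Jarid2 was the remaining host.

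Mcl1, encoding a survival protein of the BCL2 family, covered 668 to 1159 bp for Ser5P and 815 to 1313 bp for Ser2P at the start whose sequence is printed above. The sites of Jund, an AP-1 subunit gene (1204 bp inside), Pim3, a survival kinase gene (1819 bp), and Klf10, a zinc-finger repressor gene (1150 bp), held no listed start. Each gene had a peak within 1000 bp of its outer 5′ end in all 8 libraries. The Jund and Klf10 regions reached into that window (604 and 641 bp from the end) and can supply the peak themselves, while the Pim3 region (1552 bp) did not. Jund covered 1067 to 1192 bp for Ser5P and 790 to 1022 bp for Ser2P, which did not overlap in bp. On the centred log2 scale the difference was 0.13 ± 0.112 (SE, adjusted p = 0.665, limma) and did not pass.

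Among ribosomal protein genes the region of Rps9, chr7:3706261-3707312, ran past the 3′ end of this short gene at chr7:3706897. Peaks covered 904 and 1041 bp of it in the Ser5P controls, 525 and 721 bp in the Ser5P KD libraries, and 309 to 563 bp in all Ser2P libraries. The KD libraries thus lay below the controls for Ser5P, with adjusted p = 0.436 (limma). Rps2, over an internal start, covered 688 to 820 bp for Ser5P and 280 to 645 bp for Ser2P. Rpl22 held 2 sites, and Rpl19 and Rpl36 held 1 each.

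Whether Myrlin knockdown changed the sites was tested on covered length. Each library's log2 covered length was centred on its own median, and the 4 groups were fitted together with limma over all 11773 constant regions, with Benjamini-Hochberg adjustment. All these regions had a peak in every control and KD library by choice, so a site lost or gained on knockdown could not be among them. The fit can therefore show only changes in the length of peaks that remained. No site was called at an adjusted p under 0.05 for Ser5P or Ser2P, and the background was the same: 0 of 11773 regions (0.0%) for each antibody. At an unadjusted p under 0.05 the Ser5P count was 52 sites higher and 37 lower in KD, beside 4.05% and 3.24% of all regions (477 and 381). The Ser2P count was 75 higher and 67 lower, beside 5.37% and 4.54% (632 and 535). For the 1252 sites these are 4.15% and 2.96%, and 5.99% and 5.35%, each near the background. The difference between the 2 knockdown effects also gave 0 calls at an adjusted p under 0.05 (0.0% of all regions), and 49 and 46 sites in the 2 directions at an unadjusted p under 0.05, beside 3.48% and 2.98% of all regions. Without the second Ser2P control library the Ser2P comparison again gave 0 calls, with 68 sites higher and 45 lower at an unadjusted p under 0.05 (922 of all 11773 regions). Without the first Ser2P control it also gave 0 calls, with 143 and 136 sites (2245 regions). An absence of calls does not show that covered length was the same in both lines.

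The direction of the Ser2P values depended on the centring. With it, the median difference between KD and control was -0.056 on the log2 scale over the sites and -0.059 over all regions. Without it the medians were 0.295 and 0.291, and the unadjusted split of 75 higher and 67 lower became 201 and 5, beside 1952 of all 11773 regions in either direction. For Ser5P the medians were -0.028 and -0.022 with centring and 0.04 and 0.046 without. The medians of the sites thus lay close to those of all constant regions under either scaling. After centring, both KD libraries lay below both controls at 292 sites (23.3%, background 22.0%) and above them at 198 (15.8%, background 16.9%) for Ser5P. For Ser2P these counts were 349 (27.9%, background 26.4%) and 219 (17.5%, background 16.2%). A comparison of 2 libraries with 2 cannot give an exact two-sided permutation p under 0.333.

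The sites were also compared between Ser5P and Ser2P. Centring each library on its own median sets the overall difference near 0, so only a site's difference relative to all regions can be read from this fit. The median, Ser5P minus Ser2P, was 0.01 on the log2 scale over the sites and -0.02 over all constant regions with centring, and 0.125 and 0.095 without it, when 904 sites had the longer mean (log2) for Ser5P and 348 for Ser2P. In the centred fit 8 of 1252 sites (0.639%) differed at an adjusted p under 0.05, against 0.595% of all regions (70). Ser5P was the longer at 7 of them (0.559%, background 0.425%) and Ser2P at 1 (0.0799%, background 0.17%). All libraries of one antibody lay beyond all of the other at 50 sites with Ser5P longer (3.99%, background 3.88%) and at 37 with Ser2P longer (2.96%, background 3.79%). The share of called sites was thus near that of constant regions in general.

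The site of Rhof was 885, 633, 1326 and 861 bp long in the Ser5P libraries and 336, 326, 363 and 343 bp in the Ser2P libraries, which did not overlap. The difference was 1.27 ± 0.204 (log2, SE; adjusted p = 0.0477, limma). Hexim2 encodes an inhibitor of the Ser2 kinase P-TEFb. Its site had 1407, 1390, 1178 and 1405 bp for Ser5P and 562, 548, 871 and 623 bp for Ser2P, a difference of 0.95 ± 0.152 (adjusted p = 0.0477, limma). Hnrnpl, encoding an RNA-binding splicing regulator, had 1857, 1484, 1612 and 1474 bp against 693, 574, 1064 and 807 bp, also without overlap (0.95 ± 0.15, adjusted p = 0.0477, limma).

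Ripply3, a transcriptional corepressor gene, had 832 to 979 bp for Ser5P and 312 to 593 bp for Ser2P (0.92 ± 0.134, adjusted p = 0.0356, limma). At Tpra1 the antibodies overlapped in bp: 1110, 1062, 1441 and 1589 bp for Ser5P, and for Ser2P 316 and 291 bp in the controls but 993 and 1229 bp in KD. Its difference of 1.03 ± 0.139 (adjusted p = 0.0295, limma) thus came with a Ser2P difference of 1.51 between KD and control that did not pass on its own (adjusted p = 0.227, limma). Galns, which encodes a lysosomal sulfatase, was the reverse case, with 509, 585, 383 and 499 bp for Ser5P and 1218, 783, 1036 and 1145 bp for Ser2P (-1.19 ± 0.139, adjusted p = 0.0192, limma). The other 2 called sites were in Flna and in a predicted gene, named here after their values were seen. When any 1 library was left out, the 6 sites described above all lost the call, and 0 to 2 of the 1252 sites were called (0 without the second Ser2P control library). Without centring 1 site was called.

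**Figure D5:**
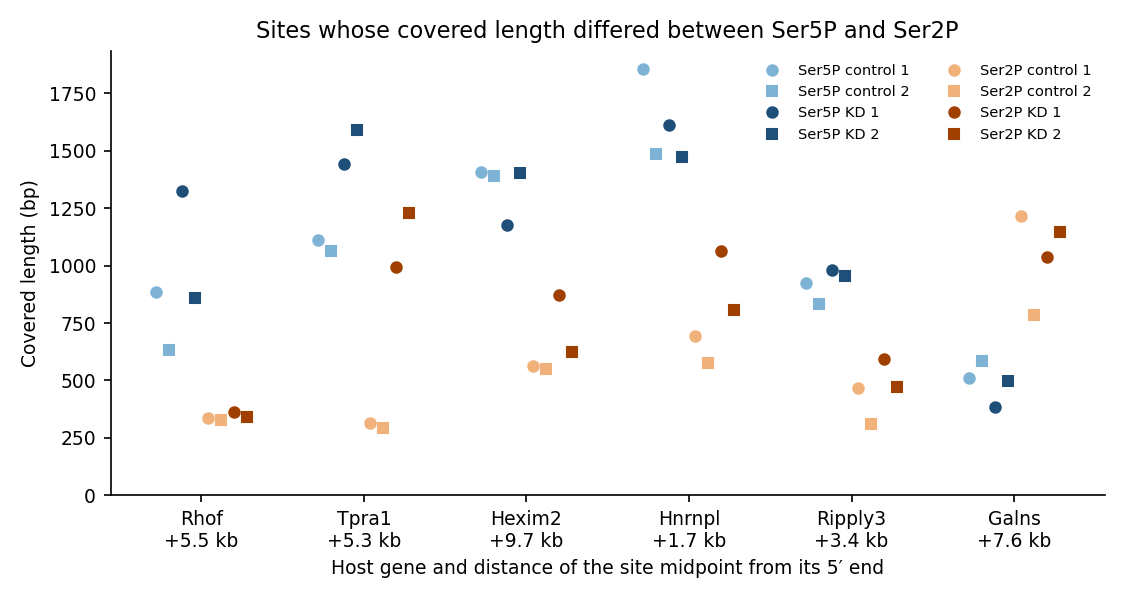
Covered length in bp (vertical axis) of 6 sites called between Ser5P (blue) and Ser2P (orange), one point per library, with the distance of the site midpoint from the host 5′ end under each name. All Ser5P points lie above all Ser2P points at Rhof, Hexim2, Hnrnpl and Ripply3, below them at Galns, and the antibodies overlap at Tpra1, where the Ser2P controls are at 316 and 291 bp.

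Summits of the 2 antibodies fell close together. Within an antibody the 4 libraries placed the summit of a site within a median range of 142.5 bp (Ser5P) or 129 bp (Ser2P). Between the antibody means the median absolute distance was 39.875 bp, and at 1010 sites (80.7%) it was within 100 bp. Along the direction of the host gene the median of Ser2P minus Ser5P was -0.125 bp. Fitted with limma over 3427 constant intragenic regions, the summit position differed at 3 sites (0.24%, background 0.233%), with Ser2P downstream at 2 (background 0.204%) and upstream at 1 (background 0.0292%).

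At Wdr1, which encodes a cofactor of actin disassembly, the Ser5P summits lay 2102, 2095, 2016 and 2041 bp from the 5′ end and the Ser2P summits 1175, 1219, 1256 and 1172 bp from it. The difference, Ser2P minus Ser5P, was -858 bp (SE 25.8 bp, adjusted p = 0.000481, limma), toward the gene's outer end, and this call held when any 1 library was left out. By the mean position of the covered bases the difference was -84.2 bp and did not pass (adjusted p = 0.539, limma).

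Usp7, a deubiquitinase gene, had Ser5P summits at 4686 to 4691 bp and Ser2P summits at 4978 to 5054 bp (326 bp further downstream, SE 24.7 bp, adjusted p = 0.0283, limma). At Smim1, which encodes the carrier of the Vel blood group, the 2 Ser5P KD libraries had the summit at 899 and 904 bp while the Ser5P controls (1914 and 2084 bp) were among the Ser2P libraries (1914 to 2084 bp). Its called difference was 522 bp (SE 46.3 bp, adjusted p = 0.0434, limma), and the Ser5P KD libraries were the ones apart. When a library was left out, Usp7 kept its call in 2 of 8 fits and Smim1 in 1 of 8. With the mean covered position both differences changed sign, to -4.88 bp at Usp7 and -35.81 bp at Smim1.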

How the data were processed

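The deposited files were MACS2 narrowPeak lists, one per CUT&Tag library, on mm10 (GRCm38). The submitters' processing notes name MACS2 2.2.7.1 and, beside it, Bowtie2 2.3.5, cutadapt 2.7, Picard 2.21.4, SAMtools 1.9 and deepTools 3.3.1, in no stated order. Settings, and any control library, were not given in the sources used. For each peak the authors deposited a display score (not used), a fold at the summit as a ratio, the −log10 p-value and −log10 q-value, and a summit offset in bp. Fold and p were used only to rank or filter peaks within their own list. The lists hold no counts, so covered length in bp stood in for signal. It depends on depth and on the peak caller.

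Peaks overlapping by at least 1 bp on chromosomes 1 to 19, X and Y were merged. Gene intervals came from the RefSeq table of GRCm38.p6 and strand from its start windows (17492 genes) or, by symbol or synonym, from GENCODE vM1 (3649 and 395). The 351 of 21887 coding genes without strand were left out, and no coordinate of the NCBIM37 genome was used. Exons, introns and starts on chromosome 18 were not used here. Covered length and summit position were fitted with limma 3.58.1 (R 4.3.3) over all constant, or all constant intragenic, regions. The script was run on simulated data in which some regions were given a Ser5P knockdown change in covered length. The fit called almost none of those regions, so it had little power for such changes.

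Named were the 10 sites highest by their weakest library, up to 6 hosts per gene list in that order, 5 genes with the most sites, up to 5 called sites per direction and comparison, up to 6 by non-coding starts, and the 2 sites nearest to each distance limit on each side. Predicted genes were passed over, and some sites this rule takes are not reported here. The sites, lists and rule were chosen with earlier results of these data known. Alternatives were −log10 q of at least 5, equal list length, other positions and windows, other scaling, a replicate block and leaving out each library.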

Additional observations from a re-analysis of the deposited data

How the results depend on the processing

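The number of sites stayed between 869 and 1459 under 14 alternatives, including leaving out each library (1274 to 1459). Excluding regions with a start of any gene within 1000 bp, chosen after seeing the data, left 564. Host genes with an outer peak in all 8 libraries were 36.0%, against 25.6% with a 500 bp window, 31.5% at −log10 q of at least 5, and 30.3% over regions more than 1000 bp from every outer start (added after seeing the data). Sites called between Ser5P and Ser2P went from 8 to 1 without centring and to 0 to 2 when a library was left out. Summit calls went from 3 to 6 with the mean covered position, to 1 in regions under 1000 bp wide, and to 1 to 8 when a library was left out. The summit differences at Usp7 and Smim1 turned to -4.88 and -35.81 bp with the mean covered position. The causes were not tested. Knockdown calls were 0 in every alternative run for both antibodies and for their difference.

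Replicate numbers did not pair the libraries: the correlation of deviations between a control and a KD library of one number was 0.012 for Ser5P and 0.0237 for Ser2P. With the replicate block 3 sites were called between Ser5P and Ser2P, 1 for summit position and 0 for knockdown. A minimum of 200 bp covered removed no region. Read depth is unknown, so small differences in covered length cannot be resolved from these lists.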
